A study of Mus musculus with 2 samples.

Results

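The genes described here were the D-type cyclins *Ccnd1*, *Ccnd2* and *Ccnd3*, their kinase partners *Cdk4* and *Cdk6*, and the cyclin-dependent kinase (CDK) inhibitors *Cdkn1a*, *Cdkn1b*, *Cdkn1c*, *Cdkn2c* and *Cdkn2d*. They were found by symbol, 10 of the 32285 genes listed, and their raw unique molecular identifiers (UMIs) were summed per library over groups of cells. The data were single-cell RNA sequencing of cerebral cortex from mice at embryonic day (E) 16.5, in 2 libraries that were both wild-type (WT). Per the labels, both came from an *Eomes-Cre* control line named EomesDot and from tissue dissociated with papain, with no treatment named. The numbers 1 and 2 only name the libraries. It is not given in the sources used here whether a library comes from a single embryo or a pool. All p-values rest on how groups of cells differed between these 2 libraries only, a spread that the fit shared over genes and groups. They measure no spread between animals beyond these libraries. There was no second genotype, and every comparison below was made between groups of cells of the same libraries.

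D-type cyclins bind CDK4 or CDK6 in the G1 phase, and these complexes phosphorylate the retinoblastoma protein, which releases E2F transcription factors and lets a cell enter S phase. The Cip/Kip inhibitors, p21 (*Cdkn1a*), p27 (*Cdkn1b*) and p57 (*Cdkn1c*), bind several cyclin-CDK complexes, while the INK4 inhibitors, p18 (*Cdkn2c*) and p19 (*Cdkn2d*), bind CDK4 and CDK6 and keep D-type cyclins away from them. In the embryonic cortex radial glial cells (RGCs) divide at the ventricle and produce intermediate progenitors (IPCs), which produce excitatory neurons, and GABAergic neurons come from progenitors of the ganglionic eminences below the cortex.

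After cells with 1500 to 60000 UMIs and under 10% mitochondrial UMIs were kept and doublets were removed, 5534 and 9136 cells remained in replicates 1 and 2, with a median of 5706 and 4938 UMIs before doublet removal. Of the cell barcodes kept, 21 occurred in both libraries, or 0.352% and 0.205% of them. Clusters were named from marker genes, so each class is called "like" its type, and progenitors were called cycling (S or G2M phase) or non-cycling (G1) from 43 S and 54 G2M genes that hold no member. The classes carried their defining markers, given here as counts per 1000000 UMIs of a group's sum (CPM). *Hes5*, a Notch target of RGCs, was at 146 and 161 CPM in cycling and at 213 and 214 CPM in non-cycling RGC-like cells, and *Eomes*, the defining factor of IPCs, was at 408 and 431 CPM in cycling and at 777 and 731 CPM in the non-cycling part of IPC-like cells. *Dlx6*, a factor of the GABAergic lineage, was at 64.5 CPM in GABAergic progenitor-like cells of both libraries and at 0.572 and 3.19 CPM in cycling RGC-like cells. The labelled cortex also held 986 striatal projection neuron-like cells. The newborn GABAergic neuron-like class was led by *Tshz1* and *Pbx3*, and *Meis2* was at 5774 and 5119 CPM there. Striatal projection neuron-like cells held *Meis2* at 4999 and 4414 CPM, and newborn excitatory neuron-like cells at 3268 and 3168 CPM. Globin RNA from outside red cells was present in every class, with *Hbb-bs* at 357 CPM in newborn excitatory neuron-like cells of replicate 1 and at 2007 CPM in those of replicate 2. Its part in the results was not tested.

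Cycling cells made up 63.6% and 61.3% of RGC-like cells (201 of 316 and 355 of 579), and 25.2% and 35.5% of IPC-like cells (66 of 262 and 150 of 423). GABAergic progenitor-like cells were cycling in 98.9% and 96.5% of cases, which left 3 and 18 non-cycling cells, too few to test. The cycling groups are ranges of a score and not types, since 40 and 106 RGC-like cells and 24 and 83 IPC-like cells lay within 0.05 of the threshold. A call of G1 also takes in cells that have left the cycle. Over all kept cells the members were counted from 195 and 325 UMIs for *Cdkn1a* to 11063 and 15244 UMIs for *Cdk4* in replicates 1 and 2, so differences in *Cdkn1a* rest on few molecules.

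The members lie on chromosomes 4, 5, 6, 7, 9, 10 and 17 of the mouse genome (positions from RefSeq, GRCm38.p6, the assembly called mm10 in the submitters' processing notes). *Ccnd1* is at 144929931 to 144939831 and *Cdkn1c* at 143458339 to 143461059 of chromosome 7, and *Ccnd2* is at 127125162 to 127152188 and *Cdkn1b* at 134920401 to 134925525 of chromosome 6. *Cdkn2c* is at 109660876 to 109666756 of chromosome 4. *Cdk6* is the longest, with 190005 bases on chromosome 5. Other annotated genes overlap *Ccnd1* (1), *Ccnd2* (1), *Ccnd3* (2), *Cdk4* (1) and *Cdk6* (2), and whether the counting used strand and intron reads is not given in the sources used here, so reads of those neighbours may be included.

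Promoter sequence was at hand for 7 of the 10 members in RefSeq (GRCm38.p6), and the 250 bases before each start were searched on both strands for motifs of cycle-linked promoters. The E2F core TTCCCGC was in 3.82% of 32817 promoters and in that of 1 member, *Cdkn2c*. The core TTGGCGC (1.97% of promoters) and the CHR element TTTGAA (16%) were in no member's window, and the GC box GGGCGG (32.7%) was in those of 6 members, *Ccnd3*, *Cdk4*, *Cdkn1a*, *Cdkn1b*, *Cdkn2c* and *Cdkn2d*. No searched motif overlapped another in the *Cdkn2c* window. It is printed because this gene had the widest difference between cycling and non-cycling IPC-like cells among the members (chr4:109666757-109667006, minus strand, 5′ to 3′, ending at the base before the start), with the TTCCCGC match 25 bases and the GGGCGG matches 95, 51 and 40 bases before the start in capitals:
Cdkn2c: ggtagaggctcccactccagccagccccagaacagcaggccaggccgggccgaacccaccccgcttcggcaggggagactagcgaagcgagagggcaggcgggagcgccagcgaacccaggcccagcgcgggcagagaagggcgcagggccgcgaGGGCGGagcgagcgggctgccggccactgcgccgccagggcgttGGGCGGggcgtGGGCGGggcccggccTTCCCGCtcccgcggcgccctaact
A match to these letters describes the sequence and does not show that a factor binds there.

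In RGC-like cells, cycling cells held more RNA of both INK4 inhibitors and of *Ccnd2*, and less of *Cdkn1c*, than non-cycling cells. In IPC-like cells the same genes moved the same way, and *Ccnd1* and *Cdk6* were also higher in cycling cells. *Cdkn1b* and *Ccnd3* did not pass the test in either class. In RGC-like cells 5 of the 10 members passed (4 higher and 1 lower) at an adjusted p under 0.05 in the quasi-likelihood test of edgeR, adjusted by Benjamini-Hochberg, where 14.2% of the 15356 genes tested did (7.33% higher and 6.83% lower). Their median log2 fold change was 0.22, against -0.04 over all genes. In IPC-like cells 6 members passed (5 higher and 1 lower), where 16.0% of genes did (8.31% higher and 7.65% lower), with a median of 0.77 against -0.11. The 10 members were all tested in each comparison.

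**Figure D1:**
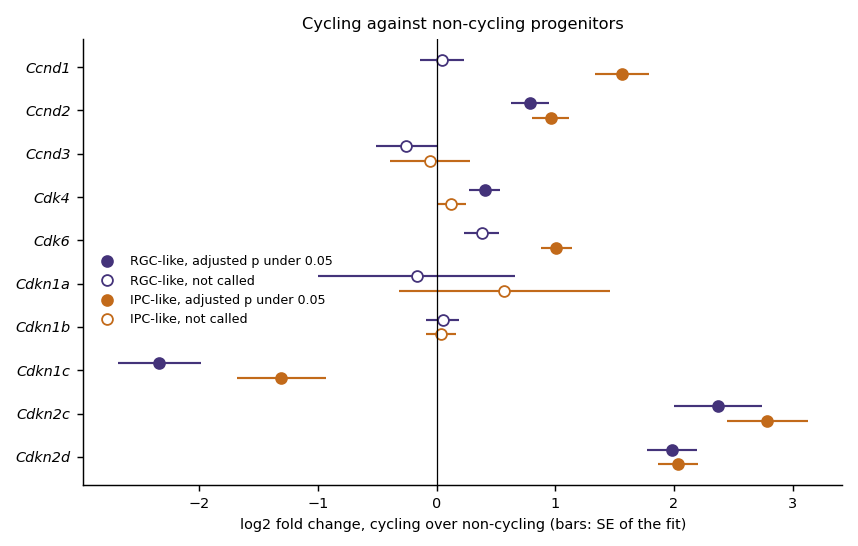
Log2 fold change of each member in cycling over non-cycling cells (x axis) in RGC-like and IPC-like cells, from the edgeR fit over 2 libraries, with bars of 1 standard error (SE) and filled points for an adjusted p under 0.05. *Cdkn2c* and *Cdkn2d* lie near 2 or above in both classes, *Cdkn1c* lies below 0 in both, and *Ccnd1* lies at 0.05 in RGC-like and at 1.56 in IPC-like cells.

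Among the D-type cyclins, *Ccnd2* was at 655 and 605 CPM (replicates 1 and 2) in cycling RGC-like cells and at 351 and 372 CPM in non-cycling ones. It was higher in cycling cells of both libraries without overlap (log2 fold change 0.79, SE 0.16, edgeR adjusted p = 0.000199). In IPC-like cells *Ccnd2* was at 834 and 770.0 CPM in cycling and at 413 and 383 CPM in non-cycling cells (log2 fold change 0.96, SE 0.15, edgeR adjusted p = 3.9e-06). Both cycling groups again lay above both non-cycling groups. *Ccnd1* was at 68.6 and 100.1 CPM in cycling and at 62.9 and 95.8 CPM in non-cycling RGC-like cells, and these ranges overlapped (log2 fold change 0.05, SE 0.18). In IPC-like cells *Ccnd1* was at 94.7 and 83.7 CPM in cycling but at 30.7 and 27.1 CPM in non-cycling cells, with no overlap (log2 fold change 1.56, SE 0.23, edgeR adjusted p = 5.21e-07). With cells thinned to 1500 UMIs this difference was 1.28 and was not called (edgeR adjusted p = 0.115).

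The difference between these 2 effects on *Ccnd1* was itself tested, as the effect of cycling in RGC-like cells less the same effect in IPC-like cells. It was -1.51 on the log2 scale (SE 0.30, edgeR adjusted p = 0.00431), with -1.51 in replicate 1 and -1.56 in replicate 2. This was 1 of 10 members, where 0.788% of genes passed this test, and the median over the members was -0.31 against 0.07 over all genes. With cells thinned to 1500 UMIs the difference was -1.17 (edgeR adjusted p = 0.755), and with classes made from UMI gates it was -1.0 (edgeR adjusted p = 0.128). *Ccnd3*, the cyclin with the fewest UMIs of the family, was at 28.6 and 25.5 CPM in cycling and at 25.4 and 36.2 CPM in non-cycling RGC-like cells. Its level in IPC-like cells was 20 and 17.1 CPM in cycling and 16.6 and 19.9 CPM in non-cycling cells, and the ranges overlapped in both classes.

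Of the kinases, *Cdk6* was at 518 and 427 CPM in cycling and at 238 and 215 CPM in the non-cycling group of IPC-like cells (log2 fold change 1.01, SE 0.13, edgeR adjusted p = 2.87e-08). In RGC-like cells *Cdk6* was at 205 CPM in cycling cells of both libraries and at 171 and 143 CPM in non-cycling cells, and it did not pass (log2 fold change 0.38, SE 0.15, edgeR adjusted p = 0.0770). The difference between its effects in the 2 classes did not pass either (-0.63, SE 0.20, edgeR adjusted p = 0.143). *Cdk4* was at 357 and 329.5 CPM in cycling and at 282 and 235 CPM in non-cycling RGC-like cells (log2 fold change 0.41, SE 0.13, edgeR adjusted p = 0.0301). This call was lost in 3 of 11 alternatives, with cells thinned to 1500 UMIs, without the replicate block, and when RGC-like cells with markers of choroid plexus or fibroblasts were left out (0.34, edgeR adjusted p = 0.0876). The differences between effects of *Ccnd2*, *Ccnd3*, *Cdk4*, *Cdkn1a* and *Cdkn1b* did not pass, at -0.17, -0.20, 0.28, -0.74 and 0.01. In IPC-like cells *Cdk4* was at 632 and 577 CPM in cycling and at 554 and 519 CPM in non-cycling cells, and it did not pass (log2 fold change 0.13, SE 0.12).

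Among the Cip/Kip inhibitors, *Cdkn1c* was at 14.3 and 17.3 CPM in cycling and at 46.0 and 103 CPM in non-cycling RGC-like cells. Its summed level was lower in cycling cells (log2 fold change -2.34, SE 0.35, edgeR adjusted p = 1.04e-06), and the libraries differed in size, with -1.68 in replicate 1 and -2.57 in replicate 2. A minority of cells held any *Cdkn1c* UMI, 10.4% and 15.6% of non-cycling and 3.98% and 9.30% of cycling RGC-like cells. With thinned cells these shares were 1.74% and 7.59% against 2.49% and 2.82%, so the order was reversed in replicate 1. The difference in sums is therefore not shown for non-cycling RGC-like cells in general. Erythroid-like cells, used here as a rough gauge of free RNA, were at 34.3 and 33.2 CPM of *Cdkn1c*, above both cycling groups. They give no floor, since some classes lay below them. Upper-layer neuron-like cells, for example, were at 1.0 and 0.833 CPM of *Cdkn2c* against 6.54 and 8.07 CPM in erythroid-like cells. Free RNA was not separated from their own expression, so how far background limits this fold was not tested. Non-cycling RGC-like cells also held more RNA of the choroid plexus list, at 332 and 254 CPM in sum against 1.72 and 37.3 CPM in cycling ones, with 3 and 4 of its 5 genes detected against 3 and 1. Almost all of it was *Ttr*, at 272 and 326 UMIs against 1 and 82, while *Kl* was at 1 and 0 UMIs against 0 in both cycling groups. The fibroblast list was at 13.3 and 51.3 CPM in non-cycling and at 14.3 and 18.7 CPM in cycling cells, with 3 and 6 of its 6 genes detected against 5 and 6, and *Foxc1* at 0 and 2 UMIs against 0 and 1. Without the cells that carried such markers (4 and 19 non-cycling, 4 and 4 cycling), the difference in *Cdkn1c* was -2.49.

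In IPC-like cells *Cdkn1c* was at 28.0 and 23.1 CPM in cycling and at 66.2 and 55.3 CPM in non-cycling cells (log2 fold change -1.31, SE 0.38, edgeR adjusted p = 0.0104). The cycling values were again below those of erythroid-like cells, and how far background limits this fold was not tested. The direction was that of RGC-like cells, and the difference between the 2 effects did not pass (-1.03, SE 0.55, edgeR adjusted p = 0.592). *Cdkn1b* was at 129.8 and 141 CPM in cycling and at 148 and 116 CPM in non-cycling RGC-like cells, and at 177 and 210.0 CPM against 196 and 176 CPM in IPC-like cells. Its ranges overlapped in both classes, with log2 fold changes of 0.05 (SE 0.14) and 0.04 (SE 0.13). *Cdkn1a*, a target of p53, lay between 0.754 and 6.05 CPM in these 4 groups of both libraries and did not pass in either class.

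Both INK4 inhibitors were higher in cycling cells. *Cdkn2c* was at 75.5 and 55.1 CPM in cycling and at 16.9 and 9.05 CPM in non-cycling RGC-like cells (log2 fold change 2.37, SE 0.37, edgeR adjusted p = 2.85e-06). In IPC-like cells it was at 96.1 and 79.4 CPM against 16.6 and 8.29 CPM (log2 fold change 2.79, SE 0.34, edgeR adjusted p = 8.94e-09). The lowest cycling group was above the highest non-cycling group in each class. *Cdkn2d* was at 84.1 and 76.9 CPM in cycling and at 20.6 and 19.6 CPM in non-cycling RGC-like cells (log2 fold change 1.98, SE 0.21, edgeR adjusted p = 2.26e-10), and at 128 and 147 CPM against 33.7 and 32 CPM in IPC-like cells (log2 fold change 2.04, SE 0.17, edgeR adjusted p = 6.11e-14). Erythroid-like cells were above the *Cdkn2d* values of non-cycling RGC-like cells in the same library (27.8 CPM in replicate 1). The part of background in that fold was not tested. Their *Cdkn2c*, at 6.54 and 8.07 CPM, was close to that of the non-cycling groups in replicate 2. Neither inhibitor had effects that passed the test of a difference between the classes (-0.42, SE 0.55 for *Cdkn2c* and -0.06, SE 0.30 for *Cdkn2d*).

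Cluster 19 held 71.3% of the cycling IPC-like cells and cluster 12 held the rest, while all non-cycling IPC-like cells were in cluster 12. At a lower clustering resolution of 0.6, 149 of these 216 cycling cells were placed with the GABAergic progenitor-like cells. The comparison in IPC-like cells then called 1 member, and *Cdkn2d* turned to -0.87. All RGC-like cells were in 1 cluster.

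Of 40 other genes of the pathway, 38 were tested. In RGC-like cells 21 were higher and 2 lower in cycling cells, and in IPC-like cells 22 were higher and 2 lower. Some of them, such as *Ccne2*, *Cdk1* and *Ccnb2*, are among the genes that set the phase call, so their direction was fixed by it. *Ccnb1*, the mitotic cyclin, was at 178 and 177 CPM in cycling and at 0 and 2.26 CPM in non-cycling RGC-like cells. *E2f1*, an activating E2F factor, was at 39.5 and 37.8 CPM against 6.05 and 5.28 CPM there (log2 fold change 2.76, SE 0.33, edgeR adjusted p = 4.98e-09). The genes that were lower in cycling cells of both classes were *Btg2* and *Gadd45g*, both known to restrain the cycle, and fell by 1.08 and 0.75 on the log2 scale in RGC-like cells and by 0.53 and 0.47 in IPC-like cells.

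Within cycling cells, *Cdkn2c*, *Cdkn2d* and *Cdkn1b* were higher in G2M than in S phase in all 3 progenitor classes, and *Ccnd1* was lower. With cells thinned to 1500 UMIs, of these 12 calls those on *Cdkn2d* in RGC-like cells and on *Cdkn2d* and *Cdkn1b* in GABAergic progenitor-like cells remained. *Ccnd2*, *Cdk4* and *Cdkn1c* passed the test in no class. In RGC-like cells 4 of 10 members were called (3 higher and 1 lower), where 3.19% of the 15279 genes tested were (2.05% higher and 1.15% lower). In IPC-like cells 4 were called (3 higher and 1 lower), where 3.20% of genes were (2.33% higher and 0.870% lower). In GABAergic progenitor-like cells 7 were called (3 higher and 4 lower), where 5.84% of genes were (3.77% higher and 2.07% lower). The members' median log2 fold changes were 0.21, 0.05 and -0.16, against 0.01, 0.00 and 0.01 over all genes. Whether phase effects differed between the classes was not tested.

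**Figure D2:**
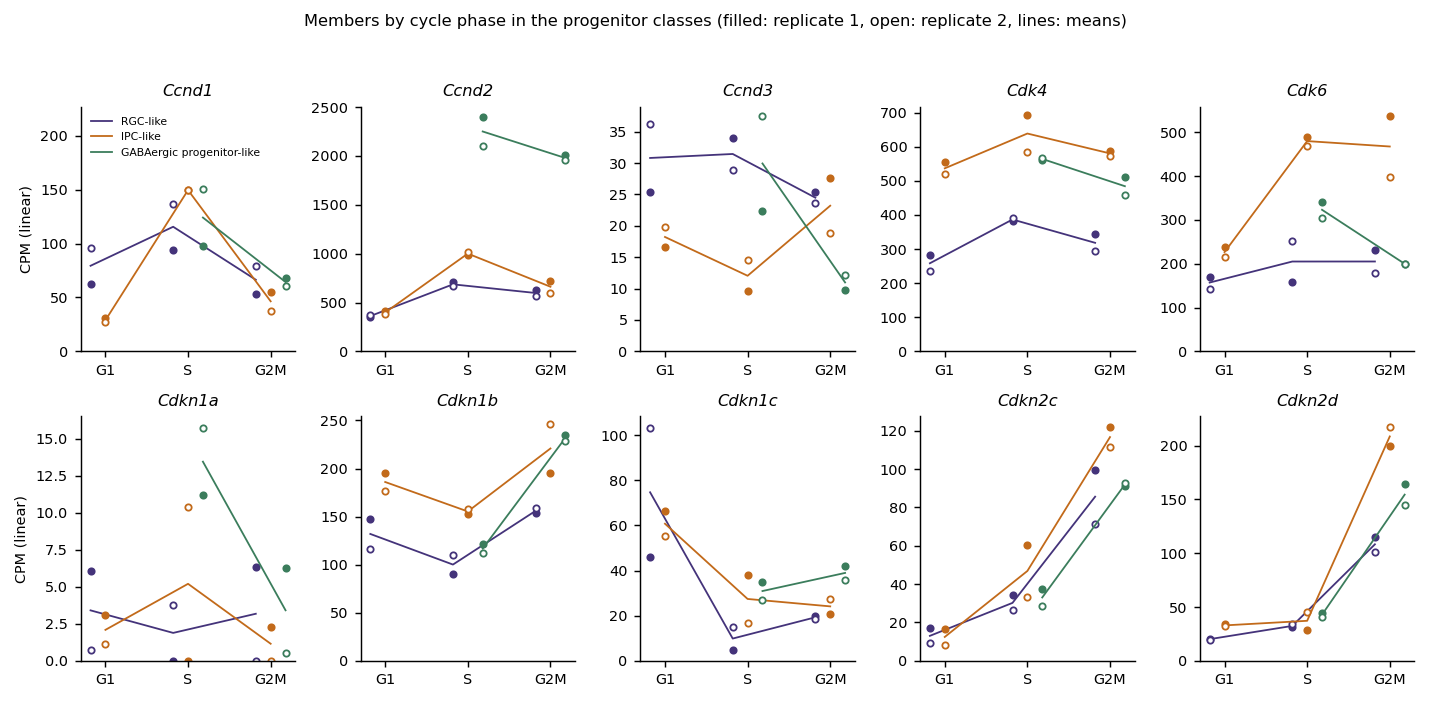
Level of each member in CPM (y axes, linear, from 0) by phase (x axis) in RGC-like, IPC-like and GABAergic progenitor-like cells, with 1 point per library and lines through the means of 2 libraries. GABAergic progenitor-like cells have no G1 point, because fewer than 20 such cells were found in each library. *Cdkn2d* reaches 101 to 217 CPM in G2M and stays at or below 45.7 CPM in S phase.

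*Ccnd1* was at 53.5 and 79.3 CPM in G2M and at 94.4 and 137 CPM in S phase of RGC-like cells (log2 fold change -0.77, SE 0.21, edgeR adjusted p = 0.0265), and this call was lost in 5 of 11 alternatives. It was at 55.1 and 37.7 CPM against 149 and 149.6 CPM in IPC-like cells (log2 fold change -1.65, SE 0.29, edgeR adjusted p = 8.71e-05). In GABAergic progenitor-like cells it was at 68.0 and 60.6 CPM against 98.1 and 150.1 CPM (log2 fold change -0.95, SE 0.20, edgeR adjusted p = 0.000641). Its S phase groups lay above its G2M groups in each class. With thinned cells the differences in the latter classes were -1.45 and -0.81 and were not called (edgeR adjusted p = 0.683 and 0.274). *Ccnd3* and *Cdk6* passed in GABAergic progenitor-like cells, where *Ccnd3* was at 9.84 and 12.1 CPM in G2M and at 22.3 and 37.5 CPM in S phase (log2 fold change -1.41, SE 0.33, edgeR adjusted p = 0.00297), and this was -0.55 and not called with thinned cells (edgeR adjusted p = 0.895). *Cdk6* was at 199 and 200.1 CPM against 341 and 305 CPM there (log2 fold change -0.63, SE 0.15, edgeR adjusted p = 0.00446). This call was lost with DESeq2 (adjusted p = 0.118) and at clustering resolution 0.6, where the difference was -0.39 (edgeR adjusted p = 0.0970).

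Of the inhibitors, *Cdkn2d* was at 115 and 101 CPM in G2M and at 31.0 and 33.8 CPM in S phase of RGC-like cells (log2 fold change 1.75, SE 0.21, edgeR adjusted p = 1.07e-08). The largest difference among the members called was that of *Cdkn2d* in IPC-like cells, at 199.9 and 217 CPM against 28.6 and 45.7 CPM (log2 fold change 2.52, SE 0.23, edgeR adjusted p = 5.64e-12), which with thinned cells was 1.52 and not called (edgeR adjusted p = 0.350). *Cdkn2c*, whose window holds the E2F core printed above, was at 99.7 and 71.5 CPM in G2M and at 34.1 and 26.3 CPM in S phase of RGC-like cells, and its log2 fold change was 1.52, 1.47 and 1.55 in RGC-like, IPC-like and GABAergic progenitor-like cells (edgeR adjusted p = 0.00228, 0.00989 and 0.000296). With thinned cells the *Cdkn2c* differences were 0.05, 0.91 and 1.15 and none was called (edgeR adjusted p = 1.0, 0.868 and 0.184), and the call in IPC-like cells was also lost with no doublets removed (edgeR adjusted p = 0.0541). *Cdkn1b* was at 235 and 228 CPM in G2M and at 122 and 112 CPM in S phase of GABAergic progenitor-like cells (log2 fold change 1.04, SE 0.14, edgeR adjusted p = 1.42e-07). In the other classes its difference was 0.65 (RGC-like, edgeR adjusted p = 0.00952) and 0.62 (IPC-like, edgeR adjusted p = 0.0360), and it turned to -0.24 and -0.14 when cells were thinned to 1500 UMIs. The *Cdkn1b* call in RGC-like cells was also lost with UMI gates and with only the sums compared (edgeR adjusted p = 0.0719 and 0.0666), and that in IPC-like cells with no filter on low counts and with only the sums compared (edgeR adjusted p = 0.0881 and 0.104). *Cdkn1a* was called in GABAergic progenitor-like cells (log2 fold change -2.23, SE 0.71, edgeR adjusted p = 0.0478), from 6.26 and 0.551 CPM against 11.2 and 15.7 CPM. The libraries gave ratios of -0.81 and -4.29, and the call was lost in 5 of 9 alternatives.

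Of the pathway genes, *E2f1* was lower in G2M in all 3 classes, with differences of -2.52, -1.34 and -1.81 on the log2 scale in RGC-like, IPC-like and GABAergic progenitor-like cells. *Ccna2*, the S and G2 cyclin, was higher in G2M (2.37, 1.83 and 1.99). In all, among pathway genes of RGC-like cells 10 were higher and 5 lower, with 8 and 3 in IPC-like cells and 10 and 9 in GABAergic progenitor-like cells, beside the shares of all genes given above. These counts include genes that set the phase call, such as *Ccnb2*, *Cdk1* and *Ccne2*, whose direction it fixed.

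Compared with IPC-like cells, RGC-like cells held less *Cdk4*, *Cdk6*, *Cdkn1b* and *Cdkn2d*, whether cycling cells or non-cycling cells were compared. Of these genes *Cdk4* passed in each of 11 alternatives in both comparisons, and the calls on *Cdk6*, *Cdkn1b* and *Cdkn2d* were each lost in at least 1. Non-cycling RGC-like cells held more *Ccnd1*. Of the members, 5 passed between non-cycling cells, 1 of them higher and 4 lower in the RGC-like group, where 27.0% of genes did (15.6% higher and 11.4% lower). Between cycling cells 4 passed, all lower, where 18.7% of genes did (7.89% lower). Their median log2 fold changes were -0.13 and -0.52, against 0.02 and 0.08 over all genes.

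Non-cycling RGC-like cells were at 62.9 and 95.8 CPM of *Ccnd1* and IPC-like cells at 30.7 and 27.1 CPM (log2 fold change 1.42, SE 0.23, edgeR adjusted p = 1.54e-06). Between cycling cells the same gene differed by -0.09 (SE 0.19, edgeR adjusted p = 0.805). *Cdk4* was at 282 and 235 CPM against 554 and 519 CPM in non-cycling cells (log2 fold change -1.14, SE 0.13, edgeR adjusted p = 6.88e-10). *Cdk6* was at 205 CPM in both cycling RGC-like groups and at 518 and 427 CPM in cycling IPC-like cells (log2 fold change -1.23, SE 0.13, edgeR adjusted p = 1.22e-10). For both kinases the IPC-like values lay above the RGC-like values in both libraries. At clustering resolution 0.6, where most cycling IPC-like cells were placed elsewhere, the *Cdk6* difference between cycling cells was -0.28 and no longer passed. *Cdkn1b* was lower in RGC-like cells by 0.59 and 0.57 on the log2 scale in non-cycling and cycling cells (log2 fold changes -0.59 and -0.57, edgeR adjusted p = 0.000674 and 0.000966), and *Cdkn2d* had log2 fold changes of -0.78 and -0.84 (edgeR adjusted p = 0.0152 and 1.08e-05). The *Cdkn2d* values of non-cycling RGC-like cells were below those of erythroid-like cells, as given above. At resolution 0.6 the *Cdkn1b* difference between cycling cells was -0.12 and did not pass, and the *Cdkn2d* difference turned to 2.02. Between non-cycling cells *Cdk6* (log2 fold change -0.61) and *Cdkn2d* were no longer called by DESeq2 (-0.47 and -0.65, adjusted p = 0.0986 and 0.0682). With cells thinned to 1500 UMIs *Cdk6*, *Cdkn1b* and *Cdkn2d* were not called either (-0.54, -0.65 and -0.34, edgeR adjusted p = 0.0836, 0.0526 and 0.798), nor were *Cdkn1b* and *Cdkn2d* between cycling cells (-0.54 and -0.95, edgeR adjusted p = 0.255 and 0.0628).

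The other members did not pass. *Ccnd2* had log2 fold changes of -0.21 in non-cycling and -0.38 in cycling cells, and *Ccnd3* of 0.72 (edgeR adjusted p = 0.0517) and 0.52. *Cdkn1c* differed by 0.33 and -0.69, *Cdkn2c* by -0.05 and -0.47, and *Cdkn1a* by 0.40 and -0.34.

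GABAergic progenitor-like cells, nearly all cycling, were compared with cycling RGC-like cells. They held more *Ccnd2* than any other group measured, and 7 of the 10 members were higher in them and none lower, where 15.1% of genes were higher and 14.0% lower (29.1% in either direction). The members' median log2 fold change was 0.53, against 0.04 over all genes.

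*Ccnd2* was at 2169 and 2011 CPM in GABAergic progenitor-like cells and at 655 and 605 CPM in cycling RGC-like cells, a 3.51-fold difference (log2 fold change 1.81, SE 0.14, edgeR adjusted p = 9.8e-15). *Ccnd1* did not pass, at 80.6 and 95.3 CPM against 68.6 and 100.1 CPM (log2 fold change 0.14, SE 0.16), and these ranges overlapped. *Ccnd3* did not pass either, at 15.1 and 22.0 CPM against 28.6 and 25.5 CPM, although its ranges did not overlap (log2 fold change -0.41, SE 0.24, edgeR adjusted p = 0.207). *Cdk4* was at 531 and 501 CPM against 357 and 329.5 CPM (log2 fold change 0.67, SE 0.12, edgeR adjusted p = 9.5e-06), and *Cdk6* was at 259 and 241 CPM against 205 CPM in both libraries (log2 fold change 0.36, SE 0.13, edgeR adjusted p = 0.0237). The latter call was lost in 5 of 11 alternatives. *Cdkn1c* was at 39.0 and 32.4 CPM against 14.3 and 17.3 CPM (log2 fold change 1.22, SE 0.36, edgeR adjusted p = 0.00669), and *Cdkn1b* at 188 and 183 CPM against 129.8 and 141 CPM (log2 fold change 0.53, SE 0.12, edgeR adjusted p = 0.000412). The *Cdkn1c* values of RGC-like cells were below and those of GABAergic progenitor-like cells near the 34.3 and 33.2 CPM of erythroid-like cells. The part of background in this fold was not tested. With UMI gates in place of clusters *Cdkn1c*, *Cdkn1b* and *Cdkn2d* were not called (edgeR adjusted p = 0.124, 0.0510 and 0.109). *Cdkn1a* was called from few UMIs, at 8.32 and 6.42 CPM against 4.0 and 1.37 CPM, and erythroid-like cells, at 9.80 and 2.69 CPM, were above both groups in replicate 1. With no doublets removed its log2 fold change went from 1.56 to 0.42 and was not called (edgeR adjusted p = 0.532). Of the INK4 inhibitors *Cdkn2d* was higher (log2 fold change 0.52, edgeR adjusted p = 0.00133), and *Cdkn2c*, at 68.6 and 67.9 CPM against 75.5 and 55.1 CPM, overlapped.

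Among the pathway genes 13 were higher in GABAergic progenitor-like cells and 1 was lower. *Gadd45g* was at 414 and 476 CPM against 52.0 and 67.8 CPM in cycling RGC-like cells (log2 fold change 2.96, SE 0.16, edgeR adjusted p = 9.97e-21). The gene that was lower was *E2f5*, a repressor-type E2F factor, at 33.3 and 44.6 CPM against 122 and 116 CPM (log2 fold change -1.49, SE 0.16, edgeR adjusted p = 1.25e-10).

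In the excitatory lineage, all 3 D-type cyclins, both kinases and *Cdkn2c* were lower in newborn neuron-like cells than in non-cycling IPC-like cells, and *Cdkn1b* was higher. From newborn to upper-layer neuron-like cells *Cdk6*, *Ccnd2*, *Cdkn2c* and *Cdk4* were lower again, and *Cdkn1b* was lower as well. At the first step 7 of the 10 members passed (1 higher and 6 lower), where 20.1% of genes did (10.3% higher and 9.74% lower), with a median log2 fold change of -0.65 against 0.03 over all genes. At the second step 5 passed, all lower, where 27.2% of genes did (12.7% lower), with a median of -0.47 against 0.01.

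**Figure D3:**
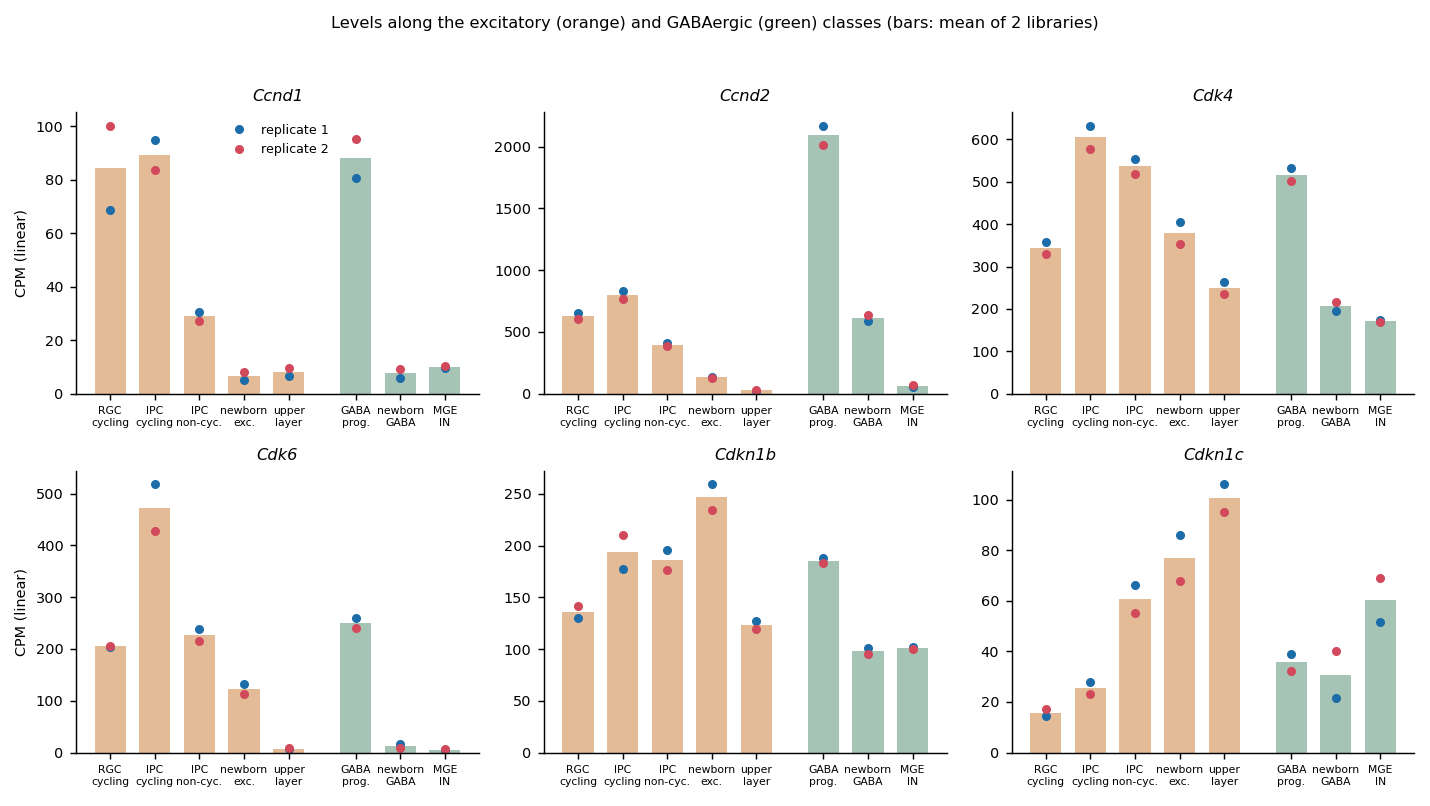
Level of 6 members in CPM (y axes, linear, from 0) along the excitatory classes (orange) and the GABAergic classes (green), with bars for the mean of 2 libraries and 1 point per library. *Ccnd2* is highest in GABAergic progenitor-like cells, at 2169 and 2011 CPM, and *Cdk6* falls from 133 and 113 CPM in newborn excitatory neuron-like cells to 6.92 and 7.87 CPM in upper-layer neuron-like cells.

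*Ccnd1* was at 5.27 and 7.94 CPM in newborn excitatory neuron-like cells and at 30.7 and 27.1 CPM in IPC-like cells that were not cycling (log2 fold change -2.06, SE 0.29, edgeR adjusted p = 2.08e-07). *Ccnd2* was at 136 and 131 CPM against 413 and 383 CPM (log2 fold change -1.54, SE 0.16, edgeR adjusted p = 7.39e-11). *Ccnd3* was at 7.45 and 10.7 CPM against 16.6 and 19.9 CPM (log2 fold change -0.95, SE 0.29, edgeR adjusted p = 0.0118). For each cyclin the newborn neurons of both libraries lay below the progenitors. *Cdk6* was at 133 and 113 CPM against 238 and 215 CPM (log2 fold change -0.84, SE 0.13, edgeR adjusted p = 1.23e-06), and *Cdk4*, at 405 and 354 CPM against 554 and 519 CPM, was lower by less (log2 fold change -0.46, SE 0.11, edgeR adjusted p = 0.00212). *Cdkn1b* was at 259 and 234 CPM in newborn excitatory neuron-like cells, its highest level in any class, and at 196 and 176 CPM in the IPC-like cells compared (log2 fold change 0.45, SE 0.11, edgeR adjusted p = 0.00216). With cells thinned to 1500 UMIs *Ccnd1*, *Ccnd3*, *Cdk4* and *Cdkn1b* were no longer called (-1.41, -1.31, -0.40 and 0.25, edgeR adjusted p = 0.0648, 0.162, 0.0517 and 0.463), and with UMI gates *Ccnd3* was not (-0.60, edgeR adjusted p = 0.132). The *Cdkn1b* difference changed direction in 2 alternatives, being -0.076 with classes made from UMI gates and -0.11 when cycle scores were not regressed out before clustering. *Cdkn2c* was at 3.1 and 5.46 CPM against 16.6 and 8.29 CPM (log2 fold change -1.41, SE 0.45, edgeR adjusted p = 0.0186), with a ratio of -2.37 in replicate 1 and of -0.62 in replicate 2. *Cdkn1c* at 85.9 and 67.8 CPM and *Cdkn2d* at 40.3 and 34.3 CPM did not pass (log2 fold changes 0.37 and 0.21), nor did *Cdkn1a* (0.16).

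In upper-layer neuron-like cells *Cdk6* was at 6.92 and 7.87 CPM, 16-fold below newborn excitatory neuron-like cells (log2 fold change -4.00, SE 0.16, edgeR adjusted p = 6.41e-26). *Ccnd2* was at 24.0 and 31.8 CPM against 136 and 131 CPM (log2 fold change -2.23, SE 0.17, edgeR adjusted p = 2.08e-15), and *Cdkn1b* at 127 and 119 CPM against 259 and 234 CPM (log2 fold change -0.99, SE 0.10, edgeR adjusted p = 2.04e-11). *Cdk4* remained at 264 and 236 CPM (log2 fold change -0.59, SE 0.11, edgeR adjusted p = 2.98e-05). The Cip/Kip inhibitor *Cdkn1c* did not pass, at 106 and 95.3 CPM against 85.9 and 67.8 CPM (log2 fold change 0.40, SE 0.18, edgeR adjusted p = 0.101). *Cdkn2c* was at 1.0 and 0.833 CPM against 3.1 and 5.46 CPM (log2 fold change -2.19, SE 0.51, edgeR adjusted p = 0.000687), below erythroid-like cells in both classes. *Ccnd1*, *Ccnd3*, *Cdkn1a* and *Cdkn2d* did not pass (0.31, -0.16, -0.34 and 0.03). *Cdk4* was no longer called with UMI gates or when cycle scores were not regressed out, and *Cdkn2c* with cells thinned to 1500 UMIs. Free RNA can limit how low a level can be read. Erythroid-like cells, whose own expression of these genes was not tested, were at 39.2 and 90.6 CPM of *Ccnd2*, at 8.17 and 16.1 CPM of *Ccnd1* and at 6.54 and 11.7 CPM of *Cdk6*. The levels of these 3 genes in upper-layer neuron-like cells and of *Ccnd1* in newborn neuron-like cells were at or below those levels in the same library or within their range.

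Of the pathway genes none was higher and 7 were lower in newborn excitatory neuron-like than in non-cycling IPC-like cells. *Gadd45g* was at 18.6 and 22.1 CPM against 488 and 359 CPM (log2 fold change -4.32, SE 0.17, edgeR adjusted p = 1.27e-24), and *Btg2* was lower by a log2 fold change of -2.60. In upper-layer neuron-like cells 3 of 38 were higher and 8 lower, where 14.5% of all genes were higher and 12.7% lower, so the list held fewer higher calls than its size would take from all genes and not many more lower ones. They included *Mycn* (1.12) and *Rb1* (-0.58), the gene of the retinoblastoma protein.

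In the GABAergic lineage, newborn neuron-like cells were compared with cycling GABAergic progenitor-like cells, a comparison chosen after seeing that too few non-cycling progenitors were found. It therefore spans exit from the cycle as well as the step to a neuron. Of the 10 members 9 were lower, where 35.2% of genes passed in either direction and 18.5% were lower, and the members' median log2 fold change was -1.73 against 0.00 over all genes. *Ccnd1* was at 6.03 and 9.34 CPM against 80.6 and 95.3 CPM (log2 fold change -3.43, SE 0.26, edgeR adjusted p = 1.99e-15). *Ccnd2* was at 592 and 637 CPM against 2169 and 2011 CPM (log2 fold change -1.75, SE 0.15, edgeR adjusted p = 2.8e-14). The range of *Ccnd2* in these neurons overlapped that of cycling RGC-like cells, while their *Ccnd1* was below the erythroid-like level given above in the same library. *Ccnd3* was at 6.03 and 8.87 CPM against 15.1 and 22.0 CPM (log2 fold change -1.26, SE 0.33, edgeR adjusted p = 0.00177), was near the 3.27 and 8.07 CPM of erythroid-like cells, and was not called with cells thinned to 1500 UMIs. *Cdk4* was at 196 and 217 CPM against 531 and 501 CPM (log2 fold change -1.29, SE 0.13, edgeR adjusted p = 4.25e-12). *Cdk6* was at 17.2 and 9.34 CPM against 259 and 241 CPM, a 19.9-fold difference (log2 fold change -4.31, SE 0.21, edgeR adjusted p = 2.23e-22). *Cdkn2c* was at 2.58 and 0.934 CPM against 68.6 and 67.9 CPM (log2 fold change -5.39, SE 0.49, edgeR adjusted p = 6.43e-13), and its ratio was -4.51 in replicate 1. The levels of *Cdkn2c* in both newborn neuron-like classes were below the 6.54 and 8.07 CPM of erythroid-like cells. That of *Cdk6* in newborn GABAergic neuron-like cells of replicate 2 was below the 11.7 CPM of erythroid-like cells. The part of background in these folds was not tested. *Cdkn1b* was at 101 and 94.8 CPM against 188 and 183 CPM (log2 fold change -0.91, SE 0.13, edgeR adjusted p = 9.08e-08), and *Cdkn2d* at 33.6 and 28.5 CPM against 114 and 104 CPM (log2 fold change -1.82, SE 0.16, edgeR adjusted p = 2.39e-13), close to erythroid-like cells, which were at 27.8 CPM in replicate 1. The member that did not pass was *Cdkn1c*, at 21.5 and 40.2 CPM against 39.0 and 32.4 CPM. *Cdkn1a* was called (log2 fold change -1.71, edgeR adjusted p = 0.0253) with ratios of -2.73 and -1.12 in the libraries. It rested on few molecules, 1 and 6 UMIs against 16 and 19, and erythroid-like cells, at 9.80 CPM, were above both groups in replicate 1. With UMI gates in place of clusters the *Cdkn1a* call was lost (edgeR adjusted p = 0.384). Among the pathway genes 3 were higher and 28 lower.

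Medial ganglionic eminence (MGE) interneuron-like cells, at 284 and 252 CPM of the factor *Lhx6*, differed from newborn GABAergic neuron-like cells in 2 members, where 9.39% of genes passed (4.81% higher and 4.58% lower), with a median log2 fold change of -0.04 against 0.01. *Ccnd2* was at 56.8 and 68.8 CPM against 592 and 637 CPM (log2 fold change -3.29, SE 0.18, edgeR adjusted p = 7.07e-21). The MGE interneuron-like values lay within the range of erythroid-like cells, 39.2 to 90.6 CPM, and the part of background in this difference was not tested. *Cdkn1c* was at 51.7 and 69.1 CPM against 21.5 and 40.2 CPM (log2 fold change 0.87, SE 0.29, edgeR adjusted p = 0.0409), and this call was lost in 4 of 11 alternatives. The newborn GABAergic neuron-like values lay on either side of the 34.3 and 33.2 CPM of erythroid-like cells. Here too the part of background was not tested. The other 8 members did not pass. Of these *Cdk6* had the widest difference, at 5.51 and 6.04 CPM against 17.2 and 9.34 CPM (log2 fold change -1.07, SE 0.39, edgeR adjusted p = 0.0761), and *Cdkn1a*, *Ccnd1*, *Cdk4* and *Cdkn2c* were at -0.62, 0.31, -0.29 and 0.28. *Ccnd3*, *Cdkn1b* and *Cdkn2d* were at -0.07, 0.04 and -0.02. The 2 classes need not be stages of 1 lineage, since the newborn class was led by *Tshz1* and *Pbx3*. Of the pathway genes 5 were lower and none higher.

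The newborn neurons of the 2 lineages differed from each other in 5 of the 10 members (1 higher and 4 lower in the GABAergic class), where 24.0% of genes passed (13.1% higher and 10.9% lower), and the members' median log2 fold change was -0.60 against 0.00. *Ccnd2* was at 592 and 637 CPM in newborn GABAergic and at 136 and 131 CPM in newborn excitatory neuron-like cells (log2 fold change 2.18, SE 0.16, edgeR adjusted p = 3.08e-16). *Cdk6* had the opposite order, at 17.2 and 9.34 CPM against 133 and 113 CPM (log2 fold change -3.33, SE 0.22, edgeR adjusted p = 1.48e-17). *Cdkn1b* was at 101 and 94.8 CPM against 259 and 234 CPM (log2 fold change -1.36, SE 0.12, edgeR adjusted p = 5.25e-13). The excitatory class thus held more of this inhibitor and of both kinases, with *Cdk4* at 405 and 354 CPM against 196 and 217 CPM (log2 fold change -0.89, SE 0.12, edgeR adjusted p = 1.05e-07). *Cdkn1c* was at 21.5 and 40.2 CPM against 85.9 and 67.8 CPM (log2 fold change -1.22, SE 0.27, edgeR adjusted p = 0.000466), with ratios of -1.97 and -0.75 in replicates 1 and 2. It was near the erythroid-like level in the GABAergic class, and the call was lost with UMI gates. *Ccnd1*, *Ccnd3*, *Cdkn1a*, *Cdkn2c* and *Cdkn2d* did not pass (0.23, -0.26, -0.07, -1.50 and -0.31). Median depths were 3199.5 and 3297 against 7095.5 and 5091 UMIs in the GABAergic and excitatory classes. The part of depth in these differences was not tested, while the calls on *Ccnd2*, *Cdk4*, *Cdk6* and *Cdkn1b* remained with all cells thinned to 1500 UMIs.

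Over all 19 groups the members fell into different orders, given here as a description. Levels are not compared between genes, because each gene's 3′ end is captured with its own efficiency.

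**Figure D4:**
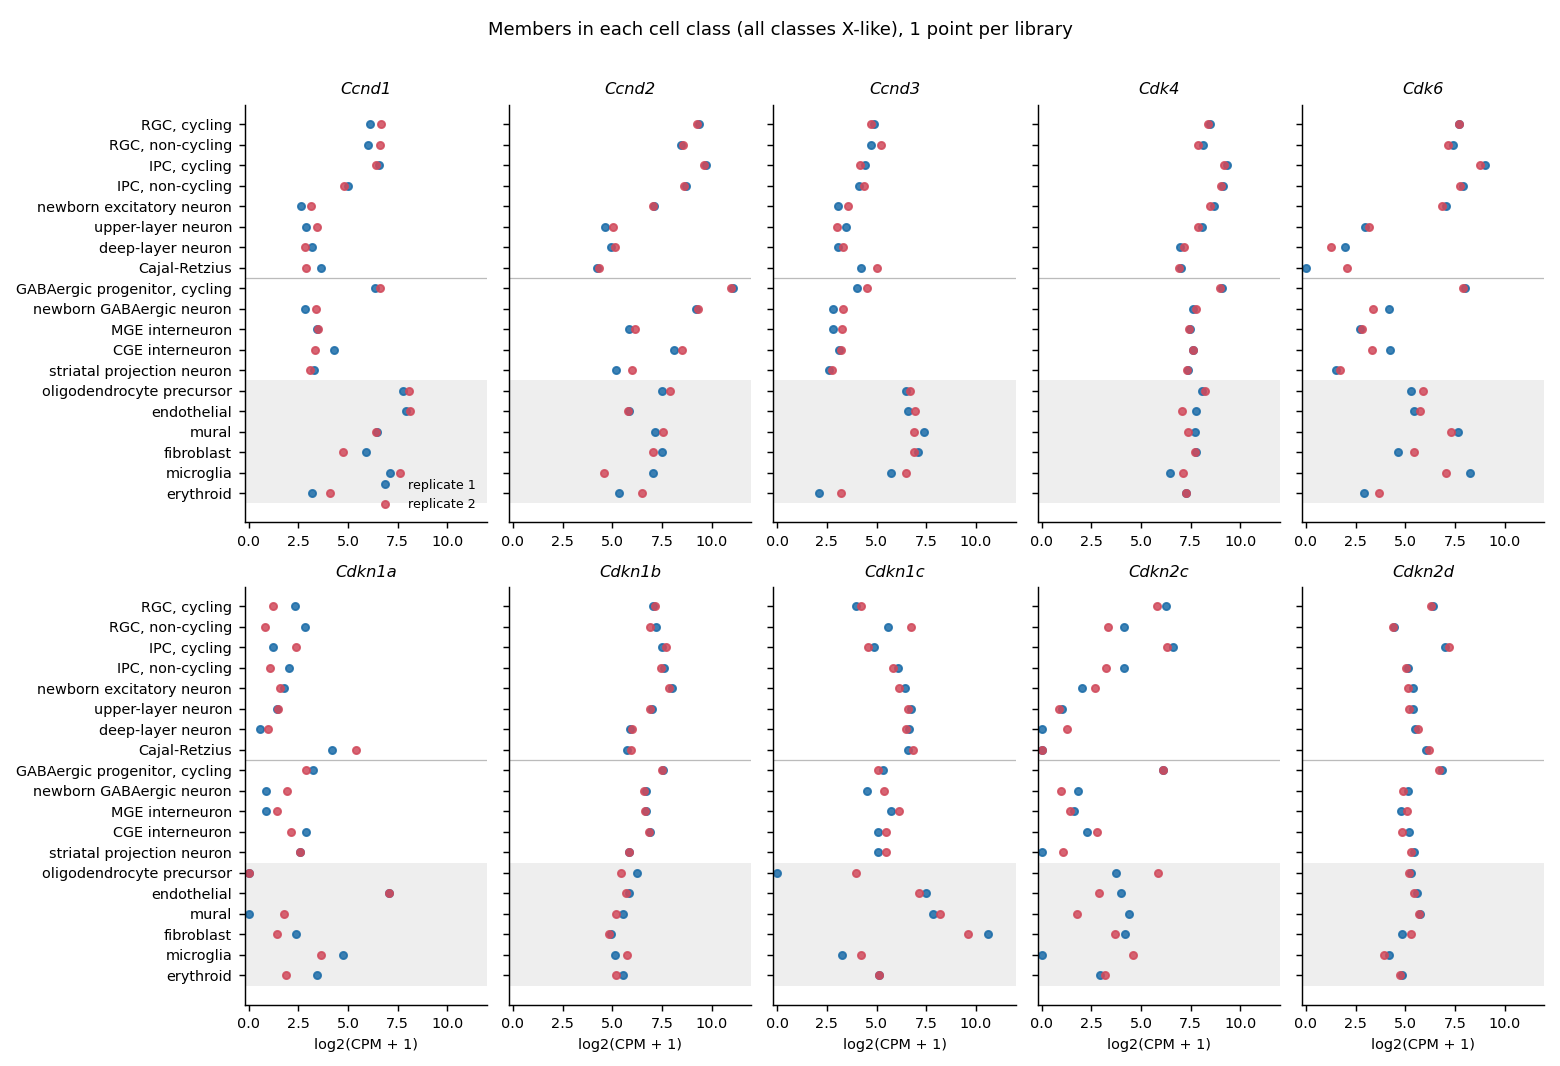
Level of each member as log2(CPM + 1) (x axes) in 19 groups of cells (y axis), with 1 point per library. The shading covers the non-neural classes and oligodendrocyte precursor-like cells. *Ccnd2* is highest in GABAergic progenitor-like cells, *Cdkn1c* in fibroblast-like cells and *Cdkn1a* in endothelial-like cells.

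*Ccnd1* was highest in endothelial-like cells at 239 and 281 CPM and in oligodendrocyte precursor-like cells at 219 and 265 CPM, and these ranges overlapped. Microglia-like cells followed at 138 and 194 CPM, above every RGC-like, IPC-like and GABAergic progenitor-like group, and of the 18 neighbouring pairs in its order 14 overlapped. *Ccnd2* was ordered more sharply, with 9 of 18 neighbouring pairs overlapping. Caudal ganglionic eminence (CGE) interneuron-like cells were at 276 and 364 CPM of *Ccnd2*, between non-cycling RGC-like cells, which they overlapped, and oligodendrocyte precursor-like cells at 182 and 236 CPM. Cajal-Retzius-like cells were lowest at 17.4 and 19.1 CPM. *Ccnd3* was highest in mural-like cells at 165 and 117 CPM, in fibroblast-like cells at 132 and 117 CPM and in endothelial-like cells at 94.0 and 121 CPM, above all neural groups other than oligodendrocyte precursor-like cells.

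*Cdk6* was highest in cycling IPC-like cells, and microglia-like cells, with 21 and 48 cells, were at 310.0 and 130.1 CPM. *Cdk4* varied least among the cyclins and kinases, from 632 and 577 CPM in cycling IPC-like to 86.1 and 139 CPM in microglia-like cells. *Cdkn1a* stood apart in endothelial-like cells at 135 and 134 CPM, and the next groups were Cajal-Retzius-like cells at 17.4 and 41.3 CPM and microglia-like cells at 25.8 and 11.6 CPM. *Cdkn1c* reached 1554 and 786 CPM in fibroblast-like, 227 and 286 CPM in mural-like and 179 and 137 CPM in endothelial-like cells. Its lowest mean was in oligodendrocyte precursor-like cells at 0 and 14.3 CPM, from 0 and 2 UMIs in 21 and 22 cells, and this range overlapped that of microglia-like cells and reached that of cycling RGC-like cells. *Cdkn1b* was lowest in fibroblast-like cells at 29.9 and 27.5 CPM, where *Cdkn1c* was highest. *Cdkn2d* was next after the cycling groups in Cajal-Retzius-like cells, at 64.0 and 73.1 CPM, while *Cdkn2c* was at 0 in both libraries of that class of 24 and 32 cells.

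The share of cells with at least 1 UMI was taken after each cell was thinned to 1500 UMIs, which every cell reached. *Ccnd2* was found in 83.0% and 84.3% of GABAergic progenitor-like cells (exact 95% intervals 77.9 to 87.2% and 80.8 to 87.4%, counting error only), in 49.8% and 51.8% of cycling RGC-like cells and in 32.1% and 32.8% of newborn GABAergic neuron-like cells. Without thinning these shares were 94.8% in both libraries, 88.1% and 83.4%, and 42.2% and 43.3%. In newborn excitatory neuron-like cells it was in 14.3% and 15.9%, and in erythroid-like cells, with median depths of 2632 and 2599 UMIs against 5810 and 4759 in GABAergic progenitor-like cells, in 4.28% and 9.91%. *Ccnd1* was found in 9.95% and 11.3% of cycling and in 9.57% and 10.3% of non-cycling RGC-like cells, and in 10.6% and 8.67% of cycling against 4.59% and 2.93% of non-cycling IPC-like cells. In newborn excitatory (1.10% and 1.55%) and newborn GABAergic neuron-like cells (0.974% and 1.22%) it was at or below the share in erythroid-like cells (1.60% and 1.75%). The part of free RNA in these shares was not tested.

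Both cyclins were found together in 4.48% and 5.92% of cycling RGC-like cells, and the product of their separate shares was 4.95% and 5.84%. In GABAergic progenitor-like cells the values were 6.67% and 8.15% against products of 7.07% and 8.55%. In cycling IPC-like cells, with 66 and 150 cells, they were 9.09% and 7.33% against 5.46% and 4.97%. No test was made of these joint shares.

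The genes with patterns most like 4 of the members were ranked by Pearson's r of log2(CPM + 1) over the 19 groups of a library, taking the lower r of the 2 libraries among 10011 genes. The points share libraries and depths, so r is a description. *Ccnd1* was most like *Msn* (r = 0.91 in both libraries), *Wipf1*, *Zfp36l1*, *Gltp* and *Nek7*. *Ccnd2* was most like *Hmgn2* (0.88 in both), *H2afv*, *Hist1h1e*, *Lockd* and *Anp32e*, and *Cdkn1b* was most like *Gm28175* (0.88 and 0.87), *Sap30*, *Ilf2*, *Pantr1* and *Insm1*. *Cdkn1c* was most like *Lamb1* (0.83 and 0.81), *Col26a1*, *Cthrc1*, *Sec24d* and *Col4a1*.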

How the data were processed

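Single-cell RNA of 2 WT E16.5 cortex libraries was captured with a 10x Genomics 3′ kit. The authors deposited raw UMI counts per gene and barcode from Cell Ranger (7.0.0 in the submitters' processing notes, 7.1.0 per the file headers) on mm10, with no normalization. The libraries held 9049 and 13556 barcodes and 46398156 and 64324236 UMIs. Here 5966 and 10247 cells passed the UMI and mitochondrial limits. Doublets were scored with Scrublet in scanpy 1.11.5, and the top 0.8% per 1000 barcodes were removed (432 and 1111 cells). The other 14670 cells were clustered (2000 variable genes without members, markers and cycle-linked genes, cycle scores regressed out, 30 components, 20 neighbours, leidenalg 0.10.2, resolution 1) into 27 clusters, and 12487 cells were in named classes. Leaving out the cycle-linked genes was chosen after seeing that clusters split by phase.

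Raw counts were summed per library and class, and genes with at least 10 UMIs in at least 2 sums entered the tests. These were run in edgeR 4.0.16 with R 4.3.3, by the quasi-likelihood test with TMM, 1 joint fit, the library as a block because both groups of a comparison come from the same libraries, and Benjamini-Hochberg adjustment over all genes tested. Calls were made at an adjusted p under 0.05. The planned comparisons that needed non-cycling GABAergic progenitor-like cells were not made, since 20 cells per library were required. A library's own log2 ratio had 0.5 UMIs added. The fit was tested on simulated data for cycling against non-cycling RGC-like cells (15053 genes), where 84 of 100 genes changed 2-fold and 99 of 100 changed 4-fold were called, with 8 of 14853 unchanged genes. The simulated counts were drawn with the spread that the fit itself gave, so a wrong spread could not show. The changed genes were at 20 CPM or more, so genes at lower levels, such as *Cdkn1a*, were not covered. The members, marker lists and pathway list were chosen with earlier results of these data known. The rule was to name all 10 members in every comparison, and those that did not pass are given more briefly. Of the 40 pathway genes, the text names up to 3 per direction, those called with the widest fold change that had 10 CPM or more in the higher group and moved alike in both libraries, without phase-list genes between phases. Alternatives were DESeq2 1.42.0, other filters, sums, clusterings, doublet handling, phase limits, depths and gates, and each library alone.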

Additional observations from a re-analysis of the deposited data

Results flagged for a closer look

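The cycling effect on *Ccnd1* differed between RGC-like and IPC-like cells in a test of the difference itself, at -1.51 on the log2 scale (SE 0.30, edgeR adjusted p = 0.00431). In RGC-like cells *Ccnd1* was at 68.6 and 100.1 CPM in cycling and at 62.9 and 95.8 CPM in non-cycling cells. In IPC-like cells it was at 94.7 and 83.7 CPM in cycling and at 30.7 and 27.1 CPM in non-cycling cells. Both libraries had the same direction, and over the 11 alternatives with a test the difference ranged from -1.69 to -1.0 and passed in 9 of them.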

How the results depend on the processing

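With 2 libraries, the calls rest on the spread that edgeR shares over genes and groups. Of the 71 calls on members, 30 remained in every alternative run, 41 were lost in at least 1, 5 of them changed direction in at least 1, and 31 further calls were gained. Each library alone, which gives a ratio and no test or count, had the direction of the fit for all 71. At clustering resolution 0.6, 1 member was called between cycling and non-cycling IPC-like cells in place of 6. At that resolution 149 of 216 cycling cells were placed in another class, and the part of this in the lost calls was not tested. There *Cdkn2d* turned to -0.87, the difference between RGC-like and IPC-like effects called 2 members with *Cdkn2d* at 2.84, the comparison of cycling RGC-like with IPC-like cells gave *Cdkn2c* 1.69 and *Cdkn2d* 2.02, and MGE interneuron-like against newborn GABAergic neuron-like cells called 1. With cells thinned to 1500 UMIs, which removes counts, 2 members were called between non-cycling and 2 between cycling RGC-like and IPC-like cells, 3 between newborn excitatory neuron-like and IPC-like cells, and 1, 0 and 3 between phases of RGC-like, IPC-like and GABAergic progenitor-like cells, and *Cdkn1b* turned to -0.24 (RGC-like) and -0.14 (IPC-like) between phases. The difference of effects then called 0. With UMI gates in place of clusters, 4 members were called between GABAergic progenitor-like and RGC-like cells, 6 between MGE interneuron-like and newborn GABAergic neuron-like cells, 2 between phases of RGC-like cells and 0 in the difference of effects. Gates turned *Cdkn1b* to -0.076 between newborn excitatory neuron-like and IPC-like cells, *Cdkn2c* to -2.48 between MGE interneuron-like and newborn GABAergic neuron-like cells, *Cdkn2c* to 1.82 and *Cdkn2d* to 0.72 between the newborn classes, and *Cdkn1c* to 1.03 between newborn GABAergic neuron-like and progenitor-like cells. For MGE interneuron-like against newborn GABAergic neuron-like cells, DESeq2 called 1, cycle scores not regressed out gave 1 and only the sums compared gave 4. Only the sums compared gave 2 in the difference of effects. Without regression of cycle scores *Cdkn1b* was -0.11 between newborn excitatory neuron-like and IPC-like cells. The causes of these changes were not tested. Without the replicate block, 4 calls were lost and none changed direction. Phases of IPC-like cells could not be compared at resolution 0.6 or with gates, since fewer than 20 cells were left. Leaving out RGC-like cells with choroid plexus or fibroblast markers, chosen after seeing the data, lost 1 call.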

Other observations

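Outside the comparisons led with above, the pathway genes *Gadd45g* and *Btg2*, both known to restrain the cycle, differed between progenitor classes. *Gadd45g* was at 117 and 89.0 CPM in non-cycling RGC-like cells and at 488 and 359 CPM in IPC-like ones (log2 fold change -2.13, SE 0.17, edgeR adjusted p = 7.01e-15). *Btg2* was at 39.5 and 61.5 CPM in cycling RGC-like cells and at 124 CPM in cycling IPC-like cells of both libraries (log2 fold change -1.31, SE 0.17, edgeR adjusted p = 3.38e-08). *E2f5* had the opposite order, at 78.7 and 71.7 CPM in non-cycling RGC-like against 33.1 and 23.2 CPM in IPC-like cells (log2 fold change 1.35, SE 0.22, edgeR adjusted p = 2.62e-06). Between MGE interneuron-like and newborn GABAergic neuron-like cells *E2f3* had a log2 fold change of -0.78 (SE 0.26, edgeR adjusted p = 0.0417).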
